A study of Mus musculus with 33 samples.

Results

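Respiratory chain genes of both genomes were followed through 11 groups of mouse bone marrow cells: the genes for the 5 enzyme complexes that carry electrons to oxygen and make ATP. Members were the rows of the deposited count table whose symbol starts with Nduf (complex I), Sdh (complex II), Uqcr (complex III), Cox4 to Cox8 (complex IV) or Atp5 (complex V, the ATP synthase), together with the mt-Nd, mt-Co, mt-Cytb and mt-Atp genes of mitochondrial DNA, and symbols holding -ps were left out. This gave 115 of 54752 rows, 102 of them nuclear and 13 mitochondrial. By complex, the nuclear rows were 47 for complex I, 8 for complex II, 8 for complex III, 21 for complex IV and 18 for complex V, with assembly factors and copies of other tissues included, and the mitochondrial rows were 7, 0, 1, 3 and 2.

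The study made RNA sequencing libraries from populations sorted from bone marrow, 3 biological replicates for each of 11 groups. The 7 control groups, from mice described as WT with no procedure named, were Ly6C- GMP (granulocyte-monocyte progenitors without the surface marker Ly6C), the neutrophil stages proNeu1, proNeu2 and preNeu, the monocyte progenitor cMoP, the stage named TpMo, and Ly6Chi monocytes. The other 4 groups were Ly6C- GMP, proNeu1, proNeu2 and preNeu taken 3 days after mid-grade CLP (caecal ligation and puncture, an operation that lets gut bacteria leak and is used to model sepsis). Strain, age, sex, pooling and sham surgery of the mice are not given in the sources used here, so surgery and infection cannot be told apart. In sorted bulk samples, fewer cells of a type and less RNA per cell cannot be told apart either.

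Complexes I, III and IV pump protons across the inner mitochondrial membrane, complex II feeds in electrons from succinate without pumping, and the ATP synthase lets protons back to make ATP. Most subunits are encoded in the nucleus and imported, whereas a small membrane-embedded core of complexes I, III, IV and V is encoded by mitochondrial DNA, which is transcribed within the organelle by its own polymerase. Neutrophils are known for relying largely on glycolysis as they mature, and monocytes for keeping more respiratory capacity.

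How far a mitochondrial gene can be read in these data depends on its nuclear copies, stretches of mitochondrial DNA inserted into chromosomes. The first pair of windows shows a member with few counts whose copy is identical there, and the second pair a member with many counts whose copy has diverged. Each window holds a stretch of the mitochondrial gene, in the direction of its transcript, and the aligned bases of its best annotated nuclear copy in GENCODE M21 (GRCm38), and capitals mark the bases that differ.
mt-Co2, chrM:7213-7272: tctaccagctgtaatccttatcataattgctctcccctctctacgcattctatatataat
Gm28661: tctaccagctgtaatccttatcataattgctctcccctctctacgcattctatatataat
mt-Cytb, chrM:14345-14404: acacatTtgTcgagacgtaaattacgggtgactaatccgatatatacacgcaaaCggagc
Gm11410: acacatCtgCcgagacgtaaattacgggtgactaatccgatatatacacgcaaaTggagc
The mt-Co2 window differs from Gm28661 at 0 bases and the mt-Cytb window from Gm11410 at 3.

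Library totals ran from 5.52 to 40 Mcounts (megacounts), with 5 libraries at 6.78 or less and the others at 17.2 or more. Levels are CPM, counts per megacount after TMM scaling, and changes are log2 fold changes ± SE from edgeR's quasi-likelihood test with Benjamini-Hochberg adjustment over 18198 genes. Markers of the sorted stages were in place: the summed CPM of 5 early neutrophil genes was highest in proNeu2 (90540 to 96850), that of 5 late neutrophil genes in preNeu (65700 to 105100), and monocyte markers were at 5283 or more in all 9 cMoP, TpMo and Ly6Chi libraries. Septic groups differed in other markers too, since early neutrophil genes summed to 38050 to 40850 in septic proNeu2 and late neutrophil genes to 27220 to 37330 in septic preNeu. The sum of 3 B cell markers was 338 CPM or more in every control library and 271 or less in every septic one, that of 5 erythroid markers was 37 to 115 CPM in control Ly6C- GMP, proNeu1 and proNeu2 and 10.3 to 26 in their septic counterparts, and that of 4 eosinophil and basophil markers was 10420 to 15520 in control and 2312 to 4760 in septic Ly6C- GMP. Single genes weigh heavily in these sums, and not every gene follows them. In control cMoP, Ighm had a mean of 653.1 CPM, Igkc of 1.919 and Cd79a of 0.534. The erythroid Hbb-bs had means of 4.778 in control and 4.847 in septic proNeu1. The eosinophil Epx ran from 974.4 to 1920 in control and from 851.8 to 1566 in septic Ly6C- GMP, which overlap. The part of these markers in the results on sepsis was not tested. Xist, expressed in female cells, was at 155 CPM or more in 24 libraries and at 1.24 or less in the 9 cMoP, TpMo and Ly6Chi libraries, where the Y-linked Ddx3y was at 61 or more. Sex and population therefore cannot be told apart for any comparison of these 9 libraries with Ly6C- GMP. The 4 septic libraries numbered 1 stood apart for mitochondrial genes: within their groups of 3 they were the highest for 13, 10, 12 and 11 of 13 mitochondrial members in Ly6C- GMP, proNeu1, proNeu2 and preNeu, against 41, 10, 13 and 20 of 91 nuclear members. Whether libraries of different populations came from the same mice is not given by the labels.

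The nuclear members took more of the counts in sepsis than in the matching control for all 4 populations, and they took least in control preNeu. The difference in sepsis was held largely by the sum of Atp5b, Uqcrc1, Atp5a1 and Sdha. Uqcrc1 by itself was lower in septic than in control proNeu1 and proNeu2, as given below. In control Ly6C- GMP the nuclear members held 0.875%, 0.935% and 0.947% of counts in the 3 libraries, against 1.242%, 1.133% and 1.192% in septic Ly6C- GMP. In proNeu1 the shares were 0.962%, 0.956% and 0.941% in controls and 1.114%, 1.112% and 1.105% in sepsis. Septic values lay above all control values in both. The shares in proNeu2 were 0.821%, 0.788% and 0.799% in controls and 1.016%, 1.064% and 1.102% in sepsis. In preNeu they were 0.451%, 0.552% and 0.668% in controls and 0.783%, 0.825% and 0.878% in sepsis. Here too the groups did not overlap. Without Atp5b, Uqcrc1, Atp5a1 and Sdha, the nuclear members with the most counts, the other 98 held 0.5255% ± 0.0328 (SD, n = 3) in control and 0.5439% ± 0.0340 in septic Ly6C- GMP, which overlap, and 0.5245% ± 0.00613 in control and 0.4871% ± 0.0205 in septic proNeu1, where all septic libraries were lower. The same 98 held 0.4302% ± 0.0195 and 0.4711% ± 0.0155 in control and septic proNeu2, and 0.300% ± 0.0446 and 0.3935% ± 0.0244 in preNeu, with all septic libraries higher in both. On the monocyte side the share was highest in cMoP, at 1.10% ± 0.0291 (SD, n = 3), then 0.858% ± 0.0239 in TpMo and 0.657% ± 0.0422 in Ly6Chi monocytes, with no overlap between these 3 groups. A share depends on what else a cell transcribes, and the 50 most abundant other genes were left out of the total as an alternative: the nuclear shares became 1.049% and 1.347% in control and septic Ly6C- GMP, and 0.709% and 1.012% in control and septic preNeu.

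The mitochondrial members took 0.602% to 2.504% of counts, and their share did not follow the nuclear one. Control preNeu was lowest for both genomes, with mitochondrial shares of 0.884%, 0.602% and 0.783%. In sepsis, however, the mitochondrial share overlapped the control range in all 4 populations: septic Ly6C- GMP had 2.192%, 1.187% and 1.046% against 1.682%, 1.589% and 1.687% in control Ly6C- GMP. In Ly6C- GMP, proNeu1 and proNeu2 this overlap rested on septic library 1. Septic libraries 2 and 3 lay below every control there, with 1.018% and 1.055% in proNeu1 against 1.067% or more. In proNeu2 they were at 1.139% and 1.185% against 1.35% or more. Ly6Chi monocytes, low for nuclear members, spread from 1.04% to 2.504%, with the highest value in library 3. The log2 ratio of mitochondrial to nuclear member counts, which does not depend on library scaling, was highest in Ly6Chi monocytes at 1.25 ± 0.553 (SD, n = 3). The libraries there were at 1.184, 0.726 and 1.827, with library 3 the highest, and the proNeu2 range of 0.757 to 1.13 lay within them. The mean ratio was 0.994 in proNeu2, 0.847 in Ly6C- GMP and 0.725 in TpMo. Control proNeu1, cMoP and preNeu followed at 0.491, 0.463 and 0.441. The septic groups had the lowest means, at 0.135 in septic proNeu1, 0.164 in septic preNeu, 0.233 in septic Ly6C- GMP and 0.419 in septic proNeu2. The last of these, with an SD of 0.550, overlapped the 3 controls named before it through its library 1, at 1.054. Septic libraries 2 and 3 of the 4 populations lay at -0.188 to 0.105. All of these were below every control library, of which preNeu library 2 was lowest at 0.125. Neighbours in this order mostly do not differ beyond the spread of their libraries: the SD in septic Ly6C- GMP was 0.524. Few members set the sums, since mt-Cytb, mt-Co1 and mt-Nd1 held 86.3% to 93% of mitochondrial member counts in every library, and Atp5b, Uqcrc1, Atp5a1 and Sdha held 35.5% to 57.4% of nuclear ones. Without mt-Cytb and Atp5b, the members with the most counts in each genome, the log2 ratio was -0.11 in Ly6C- GMP and 0.58 in TpMo. The septic groups then no longer had the lowest ratios, so their low means above rest on these 2 members. Mean mt-Cytb was 7730 CPM in control and 3583 in septic Ly6C- GMP, and Atp5b was higher in sepsis, as given below.

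**Figure D1:**
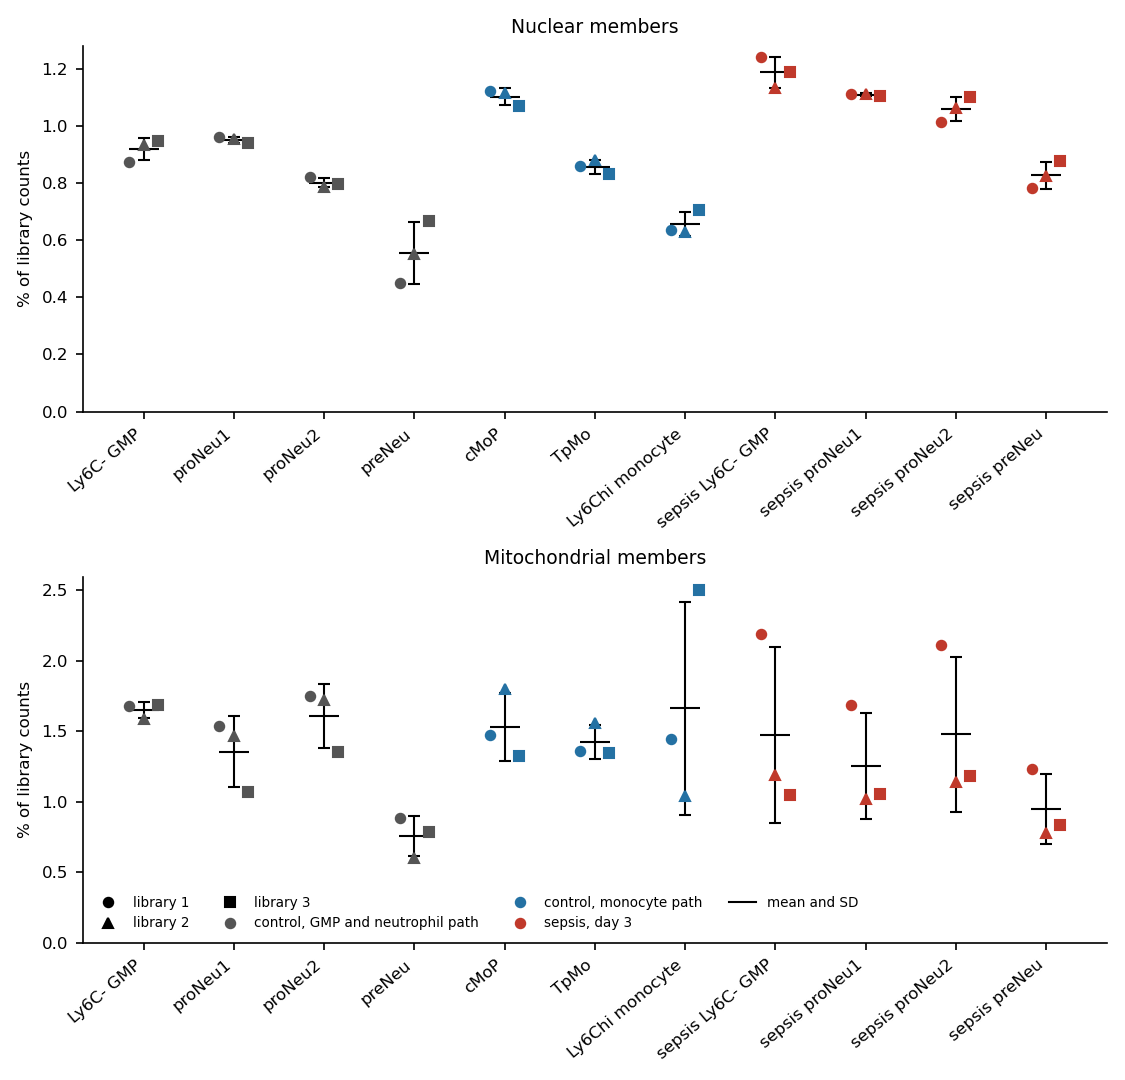
Percent of each library's counts in the 102 nuclear members and in the 13 mitochondrial members, by group (points are the 3 libraries, with library number by marker, and bars are mean and SD). Nuclear shares of the 4 septic groups lie above those of their controls, and mitochondrial shares spread widely within the septic groups and the Ly6Chi monocytes (1.04% to 2.504%).

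Per kilobase of gene, averaged over the 11 groups, mt-Cytb (cytochrome b of complex III) stood at 4042 CPM, mt-Nd1 (a membrane subunit of complex I) at 3090 and mt-Co1 (the catalytic subunit of complex IV) at 2991. Among the nuclear members with the most counts, Atp5a1 stood at 388.7 CPM per kilobase, Atp5b at 353.2 and Uqcrc1 at 262.1. The other mitochondrial members were lower: mt-Nd5 at 400, mt-Nd4 at 356.7, mt-Nd2 at 94.4, mt-Nd6 at 94.2, mt-Atp6 at 46.3, mt-Co3 at 14.6, mt-Atp8 at 8.42, mt-Co2 at 5.86, mt-Nd4l at 3.92 and mt-Nd3 at 0.943 CPM per kilobase. Mitochondrial genes of one strand are transcribed together, and how much of each gene is repeated in the nucleus is given beside this range. A run of chromosome 1 between positions 24611535 and 24615565 holds annotated copies, differing at 0.5% of bases or fewer, of 681 of 684 bases of mt-Co2 (Gm28661), 783 bases of mt-Co3 (Gm28437), 678 of mt-Atp6 (Gm10925), 345 of mt-Nd3 (Gm28438), 294 of mt-Nd4l (Gm10222) and 876 of 1378 of mt-Nd4 (Gm28439). The 5 members with such a copy over nearly their whole length were among the 6 lowest per kilobase. For mt-Co1 such a copy covered 31.3% of the gene, and for mt-Cytb, mt-Nd1, mt-Nd2, mt-Nd5 and mt-Nd6 none was annotated. mt-Nd2, at 94.4, was low without one. For mt-Atp8, at 8.42, the search found none, but it covered annotated transcripts only. mt-Atp8 lies between mt-Co2 and mt-Atp6 on mitochondrial DNA and shares 21.1% of its bases with mt-Atp6. A copy of it in the same run of chromosome 1 could therefore have been missed. How the submitters counted reads that match several places is not given in the sources used here. The levels of mt-Co2, mt-Co3, mt-Atp6, mt-Atp8, mt-Nd3, mt-Nd4l and mt-Nd4 are thus uncertain. That of mt-Co1 is uncertain too, for the 31.3% of the gene with such a copy. The part of the copies in these levels was not tested. The mitochondrial ribosomal RNA rows, which are no members, took 0.0473% to 0.568% of counts. Their share was 0.0473% to 0.117% in control Ly6C- GMP, proNeu1 and proNeu2 and 0.0530% to 0.116% in control preNeu. It was 0.174% to 0.568% in cMoP, TpMo and Ly6Chi monocytes and 0.122% to 0.299% in the septic groups.

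**Figure D2:**
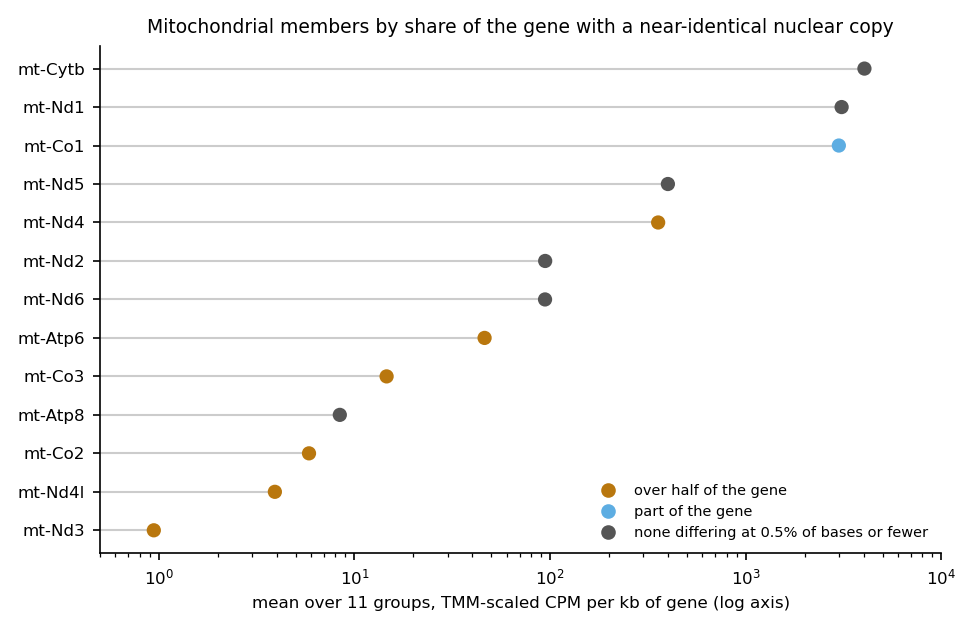
Mean level over the 11 groups of each mitochondrial member in TMM-scaled CPM per kilobase of gene (log axis), coloured by how much of the gene has an annotated nuclear copy that differs at 0.5% of bases or fewer. Of the 6 members copied over most of their length, mt-Nd4 lies at 356.7 and the others at 46.3 or below. mt-Nd2 is low with no such copy annotated. For mt-Atp8, between mt-Co2 and mt-Atp6, a copy outside annotated transcripts could have been missed.

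The most abundant mitochondrial members, mt-Cytb and mt-Co1, went opposite ways from Ly6C- GMP to cMoP and to Ly6Chi monocytes and in the mean sepsis effect. They did not do so at every step: from proNeu1 to proNeu2 the log2 change was 0.44 for mt-Cytb and 0.15 for mt-Co1, and from TpMo to Ly6Chi monocytes it was 0.19 and 0.30, and none of these passed. mt-Cytb measured 7372, 7480 and 8339 CPM in control Ly6C- GMP and 8378, 10270 and 8784 in proNeu2. It measured 4790, 1801 and 2290 in preNeu, below every proNeu2 library, and fell by 1.63 ± 0.35 (adjusted p = 0.000556). mt-Co1 measured 4067, 3329 and 1738 CPM in proNeu2 and 3629, 3503 and 3385 in preNeu, which overlap, with a log2 change of 0.20 (adjusted p = 0.687). Along the monocyte path mt-Co1 went from 2716, 2468 and 2380 CPM in Ly6C- GMP to 4435, 5288 and 4196 in cMoP, 5677, 6324 and 5751 in TpMo and 7166, 4790 and 9963 in Ly6Chi monocytes. mt-Cytb over the same groups was 3852, 4377 and 3365 in cMoP, 3463, 3865 and 3413 in TpMo and 3645, 2508 and 6140 in Ly6Chi monocytes. Every library of these groups thus lay above Ly6C- GMP for mt-Co1 and below it for mt-Cytb. In cMoP against Ly6C- GMP, mt-Co1 rose by 0.88 ± 0.31 (adjusted p = 0.0483) and mt-Cytb fell by 1.00 ± 0.34 (adjusted p = 0.0409), both close to the threshold. Both calls were lost with no filter and without any one of the 6 libraries compared, and that of mt-Co1 also with RLE size factors or library totals as the scaling.

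The same pair parted in sepsis. mt-Co1 measured 8026, 3755 and 3741 CPM in septic Ly6C- GMP, 6603, 3815 and 4275 in septic proNeu1, 8328, 4771 and 5056 in septic proNeu2 and 6644, 4114 and 4303 in septic preNeu. All were above the 3 control libraries of their population, and mt-Co1 was the single mitochondrial member of 13 for which this held in all 4 populations, against 3.99% of all genes tested. mt-Cytb measured 5328, 2829 and 2593 CPM in septic Ly6C- GMP, 3988, 2453 and 2539 in septic proNeu1 and 5705, 2655 and 2672 in septic proNeu2, all below their controls. Septic preNeu, at 3578, 1976 and 2000, overlapped control preNeu. Averaged over the 4 populations, mt-Co1 rose by 0.84 ± 0.15 (adjusted p = 6.75e-05) and mt-Cytb fell by 0.96 ± 0.17 (adjusted p = 4.69e-05). Without the 4 septic libraries numbered 1, the values were 0.52 (adjusted p = 0.00298) and -1.32 (adjusted p = 2.45e-07). The 9 control libraries of Ly6C- GMP, proNeu1 and proNeu2 stood apart in this pair: the log2 ratio of mt-Cytb to mt-Co1 counts was 1.44 to 1.81 in Ly6C- GMP, 1.12 to 1.67 in proNeu1 and 1.04 to 2.34 in proNeu2. It ran from -0.96 to 0.40 in preNeu and was below 0 in every other library, at -0.32 to -0.20 in cMoP and -1.11 to -0.41 over the septic groups. The labels give no preparation batch, so any batch and the group cannot be told apart here.

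**Figure D3:**
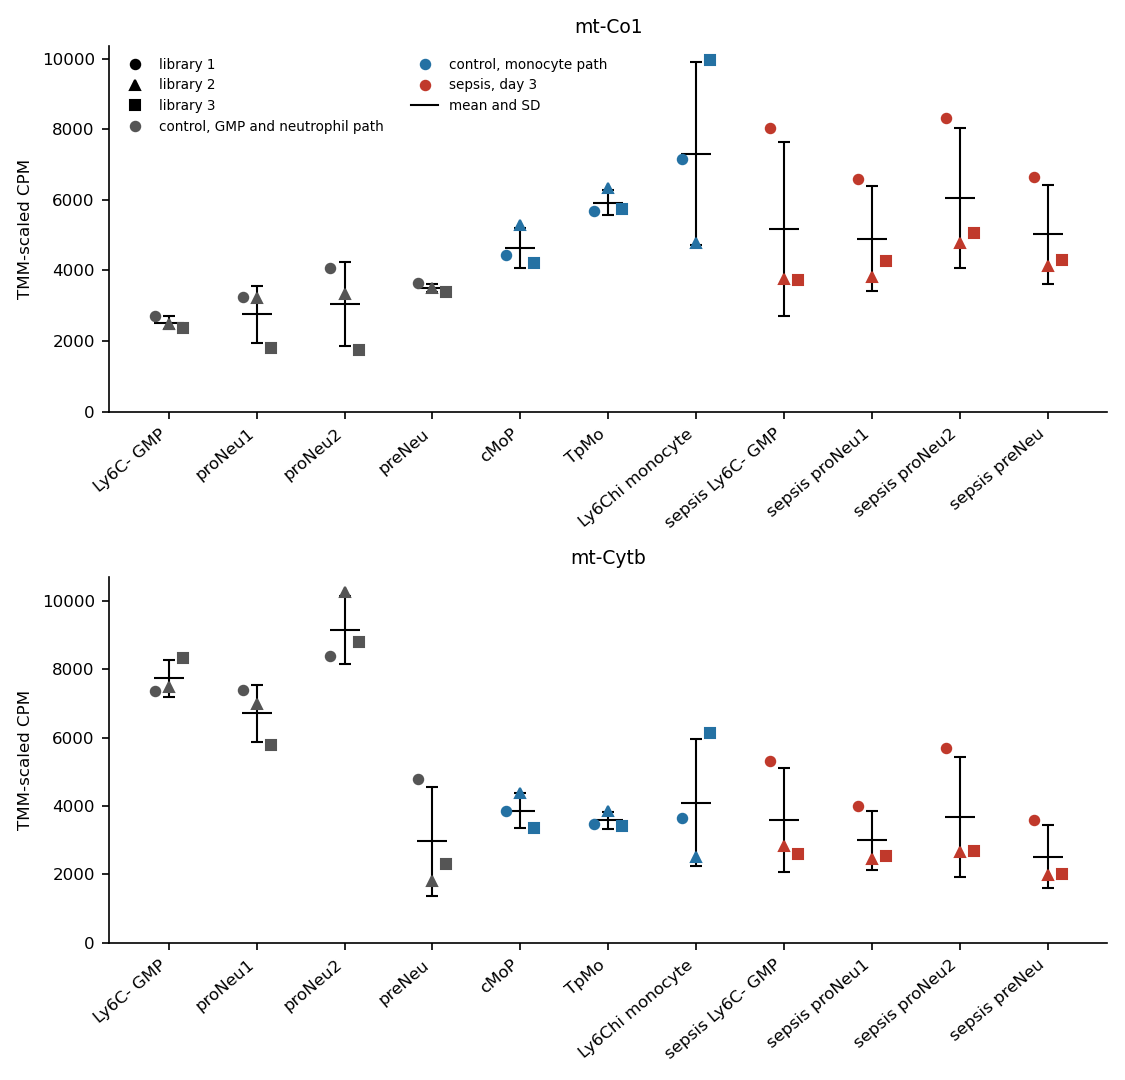
TMM-scaled CPM of mt-Co1 (top) and mt-Cytb (bottom) in each library, by group (marker shape is the library number, bars are mean and SD, n = 3). For mt-Cytb the 9 control libraries of Ly6C- GMP, proNeu1 and proNeu2 lie at 5784 or more, and for mt-Co1 they lie at 4067 or less, while every septic library lies above its controls.

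Among the other mitochondrial members, mt-Nd1 was lower in preNeu than in proNeu2, at 1462, 1252 and 1820 CPM against 3777, 2761 and 2381, and fell by 0.98 ± 0.27 (adjusted p = 0.00635), a call lost without proNeu2 library 1 (-0.74). mt-Atp6, a membrane subunit of the ATP synthase with a nuclear copy, fell by 1.43 ± 0.34 in the same comparison (adjusted p = 0.00195). It also fell in the mean sepsis effect, by 0.74 ± 0.17 (adjusted p = 0.000808). mt-Nd5, the last large membrane subunit of complex I, rose in Ly6Chi monocytes against Ly6C- GMP by 1.25 ± 0.32 (adjusted p = 0.00199). Its libraries there were 1065, 717.3 and 1743 CPM against 501.1, 529.1 and 448.8, and without Ly6Chi library 3 the change was 0.78 and not past the threshold. In the mean sepsis effect mt-Nd1 rose by 0.44 ± 0.13 (adjusted p = 0.0105) and mt-Nd5 by 0.62 ± 0.16 (adjusted p = 0.00261). Without the septic libraries numbered 1 these were 0.19 (adjusted p = 0.271) and 0.22 (adjusted p = 0.146), so both calls rest on those libraries. mt-Nd3, mt-Nd4l, mt-Nd4 and mt-Nd6 passed in none of the 13 directional comparisons.

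Of the 102 nuclear members, 91 were abundant enough to test and 67 reached 20 CPM in their highest group. The 11 untested rows were mostly isoforms named for other tissues: Cox7b2 and Cox8c, known from testis, had 0 counts, and the muscle isoforms Cox7a1, Cox6a2 and Cox8b had at most 8, 12 and 1 counts in any library. Ndufa4l2, known as a hypoxia-induced relative of Ndufa4, had at most 7. Cox4i2, the lung and hypoxia isoform of subunit 4, was tested but stayed under 1 CPM in every library, at most 0.903. The common isoform Cox4i1 ranged from a mean of 93.2 CPM in preNeu to 165.8 in Ly6Chi monocytes. Among the 7 control groups, 67 of 91 nuclear and 6 of 13 mitochondrial members differed in the test of any difference, against 63.6% of all genes tested. The lowest adjusted p-values at 20 CPM or more were those of Uqcrc1 (7.48e-14), Atp5g1 (1.84e-11), Cox7a2l (1.94e-10), Uqcrfs1 (3.56e-10) and Ndufa12 (1.1e-09).

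The early neutrophil steps moved few members. From Ly6C- GMP to proNeu1, 1 of 91 nuclear members rose, 0 fell, and 0 of 13 mitochondrial members passed, where 3.59% of all genes rose and 2.45% fell. That gene was Uqcrc1, a core-protein subunit of complex III, at 939.3, 1120 and 1290 CPM in Ly6C- GMP and 1528, 1468 and 1445 in proNeu1. It rose by 0.41 ± 0.10 (adjusted p = 0.0121). From proNeu1 to proNeu2, 0 nuclear members rose and 2 fell, against 1.57% and 1.48% of all genes, with 0 of 13 mitochondrial members past the threshold. These were Atp5a1, the alpha subunit of the ATP synthase's catalytic head (-0.42 ± 0.11, adjusted p = 0.0381), and Uqcrfs1, the Rieske iron-sulphur protein of complex III (-0.34 ± 0.10, adjusted p = 0.0439). The calls of these 2 steps were lost in fits of only the libraries compared, the first also without Ly6C- GMP library 1 or any one proNeu1 library, and both of the second without any one library other than proNeu2 library 3, without which 1 was left.

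At the step from proNeu2 to preNeu the nuclear members fell more often than they rose: 31 of 91 were lower and 3 higher, with 6 of 13 mitochondrial members lower and 0 higher, where 14.7% of all genes were lower and 13.1% higher. The fall was uneven between kinds of member. Of 13 assembly factors, which help build the complexes but are not part of them, 8 fell and 0 rose, with a median log2 change of -1.20. Of 36 complex I subunits 14 fell and 0 rose (median -0.37). Among 14 complex IV members 1 fell and 2 rose (median -0.02), and among 16 complex V subunits 3 fell and 1 rose (median 0.15). The median over all 91 nuclear members was -0.27 and that over the 13 mitochondrial members -0.53. Fitted on the libraries compared alone, 22 members passed in place of 40. Library scaling by totals alone shifts every member by a median of -0.21 here.

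Ndufaf4, an assembly factor of complex I, fell furthest of the abundant members. It measured 24.53, 16.94 and 26.2 CPM in proNeu2 and 2.053, 3.29 and 7.044 in preNeu, with no overlap, and fell by 2.56 ± 0.32 (adjusted p = 4.59e-07). Ndufaf6, another complex I assembly factor, measured 23.13, 15.05 and 20.24 CPM in proNeu2 and 1.198, 4.058 and 6.653 in preNeu and fell by 2.39 ± 0.41 (adjusted p = 4.56e-05). Ndufaf1, an assembly factor of the membrane arm, fell by 1.47 ± 0.26 (adjusted p = 7.05e-05). Uqcrc1 went from 1605, 1859 and 1835 CPM to 956.7, 693.5 and 783.5 and fell by 1.12 ± 0.10 (adjusted p = 2.21e-09). The 3 genes for the c subunit, which forms the turning ring of the ATP synthase, differed: Atp5g1 went from 65.28, 58.79 and 72.14 CPM to 15.57, 21.93 and 27.98 and fell by 1.60 ± 0.19 (adjusted p = 1.67e-07), Atp5g3 fell by 0.71, and Atp5g2 had a change of 0.46 that did not pass. Ndufa12, an accessory subunit of complex I, fell by 1.50 ± 0.22 (adjusted p = 6.72e-06). Atp5b, the catalytic beta subunit of the ATP synthase, rose by 0.51 ± 0.18 (adjusted p = 0.0299), but its preNeu libraries, at 497.6, 1189 and 1266 CPM, lay on both sides of 726.9, 597.9 and 741.1 in proNeu2. That call was lost without preNeu library 2 or 3, without proNeu2 library 2 and without the 5 shallow libraries.

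Against Ly6C- GMP, preNeu had 39 nuclear members lower and 3 higher, and 4 mitochondrial members lower and 0 higher, against 21.1% and 18.2% of all genes. Assembly factors made up 11 of the 39, with a median of -1.61 over the 13 tested. Ndufaf4 stood at 36.63, 33.35 and 52.37 CPM in Ly6C- GMP and fell by 3.42 ± 0.33 (adjusted p = 1.89e-09). Ndufv3, a small accessory subunit of complex I, went the other way, from 28.52, 32.85 and 37.09 CPM to 61.43, 76.71 and 56.74, and rose by 0.99 ± 0.18 (adjusted p = 7.66e-05). Ndufs4, an accessory subunit of the same complex, rose by 0.85 ± 0.21 (adjusted p = 0.00142). Scaled by library totals alone, members shift by a median of -0.44 in this comparison.

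Since several of these members move together, the promoter windows around their starts were searched for motifs of factors known to bind promoters of nuclear respiratory genes. RefSeq (GRCm38.p6) gave such a window, always of the same length, for 78 of 102 nuclear members and for 27025 genes in all, and both strands were searched. Counts are of genes, and a gene with several windows was counted once if any of them matched. NRF1's GCGCATGCG was found for 10 of 78 members (12.8%, against 1.95% of all genes with a window). The ETS core with flanks CCGGAAG was found for 21 (26.9%, against 9.93%), and YY1's AAGATGGCG for 8 (10.3%, against 1.64%). The genes set beside the members were not limited to those tested. A letter match is a description of the window and not a binding site. Ndufaf4 is shown for its fall in preNeu, Cox6a1, a subunit of complex IV, as a member that holds NRF1 and ETS letters and rose there, and Ndufa9 for a YY1 match. Capitals mark the matches, 5′ to 3′ on the strand of the gene.
Ndufaf4, chr4:24897833-24898132, plus strand: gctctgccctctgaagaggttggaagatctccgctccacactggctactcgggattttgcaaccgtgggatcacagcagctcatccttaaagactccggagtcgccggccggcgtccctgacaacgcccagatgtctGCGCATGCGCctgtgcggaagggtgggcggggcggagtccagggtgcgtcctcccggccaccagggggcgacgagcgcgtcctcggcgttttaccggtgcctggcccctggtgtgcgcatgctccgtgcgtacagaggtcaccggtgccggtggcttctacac
Cox6a1, chr5:115348909-115349208, minus strand: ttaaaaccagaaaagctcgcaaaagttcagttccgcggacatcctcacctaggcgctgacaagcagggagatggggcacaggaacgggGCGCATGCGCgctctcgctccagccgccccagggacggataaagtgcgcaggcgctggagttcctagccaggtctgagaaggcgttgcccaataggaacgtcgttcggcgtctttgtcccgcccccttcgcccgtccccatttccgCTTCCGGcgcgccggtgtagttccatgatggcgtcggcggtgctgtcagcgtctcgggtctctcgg
Ndufa9, chr6:126849095-126849394, minus strand: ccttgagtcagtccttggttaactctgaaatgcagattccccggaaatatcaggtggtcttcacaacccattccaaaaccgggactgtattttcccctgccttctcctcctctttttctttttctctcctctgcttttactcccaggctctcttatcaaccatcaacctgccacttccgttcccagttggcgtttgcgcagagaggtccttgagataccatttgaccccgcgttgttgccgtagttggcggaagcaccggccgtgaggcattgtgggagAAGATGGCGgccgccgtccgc
The capitals in Ndufaf4 and Cox6a1 hold NRF1 letters on both strands, as 2 overlapping matches, and CTTCCGG in Cox6a1 is the ETS match on the other strand. Of 29 members with a window that fell from proNeu2 to preNeu, 4 held the NRF1, 8 the ETS and 3 the YY1 letters. Of 17 that rose in the mean sepsis effect, these counts were 2, 5 and 1, and of 19 that fell there 1, 5 and 1. Cox6a1 measured 20.97, 14.29 and 19.69 CPM in proNeu2 and 15.51, 42.88 and 28.18 in preNeu, which overlap, for a rise of 0.66 that was lost when only the libraries compared were fitted.

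On the monocyte path the first step went the other way. From Ly6C- GMP to cMoP, 17 nuclear members rose and 8 fell, with 1 mitochondrial member in each direction, against 9.22% and 7.96% of all genes. Among 16 complex V subunits 7 rose and 0 fell (median 0.48), and among 14 complex IV members 4 rose and 0 fell (median 0.38), whereas complex I subunits gave 3 higher and 5 lower of 36. Atp5b went from 842.7, 851 and 738.9 CPM to 1752, 1700 and 1718 and rose by 1.09 ± 0.18 (adjusted p = 5.66e-05). Atp5g2 went from 13.45, 13.51 and 15.8 CPM to 32.67, 42.85 and 30.08 and rose by 1.30 ± 0.26 (adjusted p = 0.000515), while Atp5g1, coding for the same c subunit, had a change of -0.50 that did not pass. Cox8a, the common isoform of the smallest complex IV subunit, rose by 1.14 ± 0.24 (adjusted p = 0.000954). Cox4i1 rose by 0.66 ± 0.14 (adjusted p = 0.000824), though 9.94% of its exon bases are shared with Emc8. Ndufaf1 fell by 0.95 ± 0.25 (adjusted p = 0.00873), and Atp5s, grouped here with the assembly factors, fell by 1.38 ± 0.43 (adjusted p = 0.0262). The sum of 4 eosinophil and basophil markers, 10420 to 15520 CPM in control Ly6C- GMP, was 11 to 21.9 in cMoP, 11.6 to 26.9 in Ly6Chi monocytes and 45.6 to 145 in preNeu. That of 3 megakaryocyte markers was 161.6 to 227 CPM in control Ly6C- GMP and 0.724 to 1.84 in cMoP, with Gp1bb at 0 counts in both. The part of these markers in the comparisons with Ly6C- GMP was not tested. Leaving out 1 library at a time, 13 to 20 members passed in place of 27, and 17 or fewer without Ly6C- GMP library 2 or 3 or any one cMoP library.

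**Figure D4:**
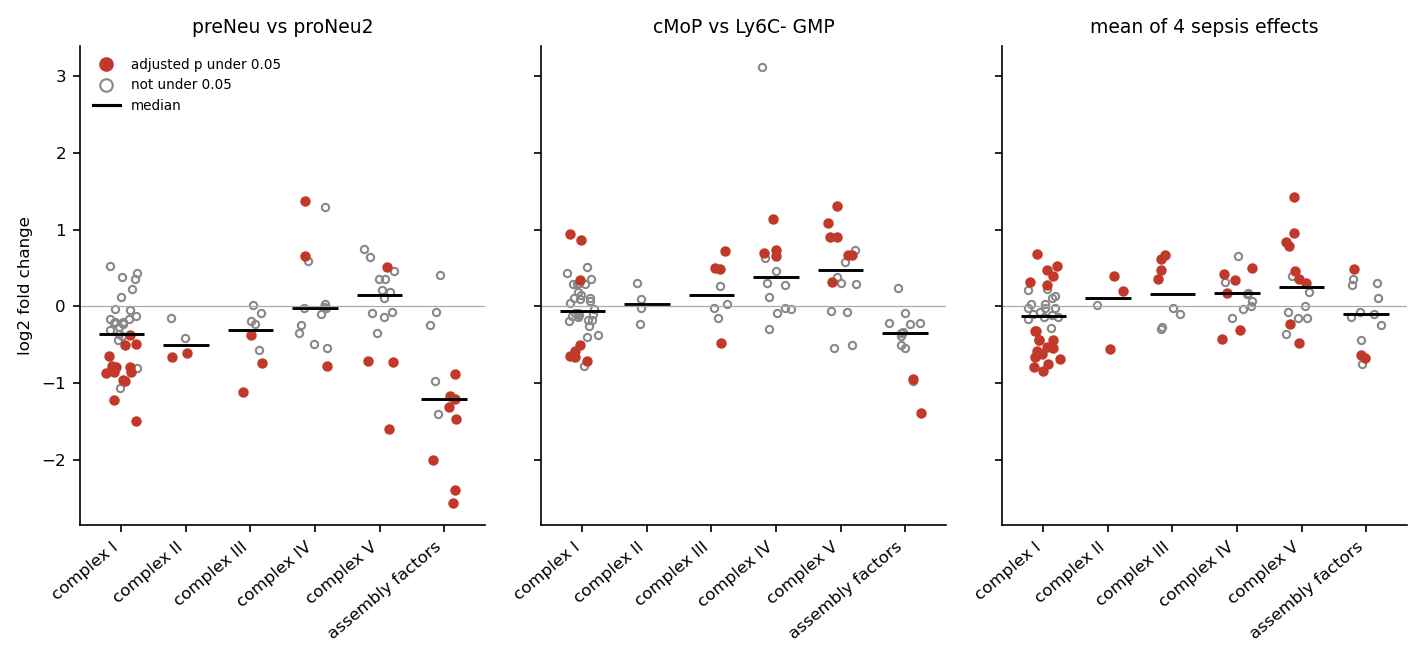
Log2 fold change of each tested nuclear member by complex, with assembly factors apart, in preNeu against proNeu2, in cMoP against Ly6C- GMP and in the mean of the 4 sepsis effects (filled points passed at adjusted p under 0.05, bars are medians). The assembly factors have a median of -1.20 in the first panel, and complex V has medians of 0.15, 0.48 and 0.25 from left to right.

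From cMoP to TpMo, 13 of 91 nuclear members fell and 0 rose, and 0 of 13 mitochondrial members passed, against 8.56% and 9.52% of all genes. Assembly factors gave 5 of the 13 (median -0.85 over the 13 tested). Ndufaf6 went from 21.66, 23.18 and 15.66 CPM to 4.852, 8.622 and 9.107 and fell by 1.42 ± 0.38 (adjusted p = 0.00805). Atp5g1 went from 47.68, 54.11 and 55.15 CPM to 25.26, 27.62 and 27.46 and fell by 0.97 ± 0.18 (adjusted p = 0.000279). Ndufa12 fell by 1.05 ± 0.22 (adjusted p = 0.000814) and Ndufaf4 by 1.02 ± 0.29 (adjusted p = 0.0126), the latter not past the threshold without TpMo library 1. The count of 13 fell to 3 to 8 whichever library was left out, with 3 without TpMo library 1, and it was 27 with library totals as the scaling.

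From TpMo to Ly6Chi monocytes, 14 nuclear members fell and 2 rose, with 0 of 13 mitochondrial members past the threshold, against 13.3% and 7.59% of all genes. Among the 25 nuclear members with coding lengths of 600 bases or more, which include the large catalytic subunits, 12 fell and 0 rose (median -0.38). Among the 66 shorter members 2 fell and 2 rose. Atp5b went from 1483, 1458 and 1477 CPM to 885.3, 815.3 and 781.3 and fell by 0.83 ± 0.18 (adjusted p = 0.00083). Sdha, the succinate-oxidising subunit of complex II, went from 633, 663.1 and 582.8 to 479.9, 380.4 and 308.1 and fell by 0.69 ± 0.12 (adjusted p = 0.000114). The rising members were Cox7a2l, a complex IV relative known to join complexes III and IV into supercomplexes, at 211.9, 241 and 199.3 CPM in TpMo and 387.8, 349.3 and 322.3 in Ly6Chi monocytes (0.70 ± 0.11, adjusted p = 2.25e-05), and Ndufa6, an accessory subunit of complex I (0.81 ± 0.22, adjusted p = 0.00767). Across the 91 nuclear members, Spearman's rho of coding length with this change was -0.42, and over all 13084 genes with a length it was near 0, as a description.

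Ly6Chi monocytes against Ly6C- GMP had 12 nuclear members higher and 32 lower, and 3 mitochondrial members higher and 1 lower, against 20.1% and 25.5% of all genes. With library totals as the scaling, which shifts members by a median of -0.22, 7 members were higher and 46 lower over both genomes, in place of 15 and 33. Assembly factors gave 7 of the lower ones of 13 tested (median -0.98): Ndufaf1 went from 43.63, 58.81 and 50.62 CPM to 14.92, 12.74 and 7.777 and fell by 2.12 ± 0.27 (adjusted p = 1.37e-07), and Ndufaf4 fell by 1.98 ± 0.30 (adjusted p = 2.98e-06). Atp5s fell by 2.97 ± 0.47 (adjusted p = 5.4e-06) and Uqcrc1 by 1.02 ± 0.10 (adjusted p = 2.33e-09). Ndufs4 rose from 16.53, 13.65 and 16.51 CPM to 33.19, 25.3 and 45.19 (1.16 ± 0.21, adjusted p = 3.05e-05), and Uqcrh, the hinge subunit of complex III, rose by 0.96 ± 0.24 (adjusted p = 0.00149). mt-Co1 rose by 1.53 ± 0.31 (adjusted p = 0.000182), while mt-Cytb fell by 0.92 ± 0.34 (adjusted p = 0.0287), a call lost in DESeq2, with no filter, without the 5 shallow libraries, and without Ly6C- GMP library 2 or 3 or Ly6Chi library 1 or 2.

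In sepsis, 4 of the 5 subunits of the ATP synthase head, Atp5a1, Atp5b, Atp5c1 and Atp5d, had every septic library above its controls in all 4 populations studied, and Atp5e, the epsilon subunit, did so in 0 of 4 (mean change 0.19 ± 0.16, adjusted p = 0.385). Atp5b measured 2559, 2088 and 2339 CPM in septic Ly6C- GMP against 842.7, 851 and 738.9 in its control, and 2388, 2329 and 2423 in septic proNeu1 against 899.3, 940.7 and 896.3. In septic proNeu2 it measured 2168, 2467 and 2475 against 726.9, 597.9 and 741.1, and in septic preNeu 1893, 1988 and 2016 against 497.6, 1189 and 1266. It rose by 1.52, 1.38, 1.78 and 1.00 in these 4 populations and by 1.42 ± 0.09 on average (adjusted p = 9.73e-13). Atp5a1 measured 1935, 1775 and 1838 CPM in septic Ly6C- GMP against 911, 916.7 and 837.5, and rose by 1.06, 0.75, 1.10 and 0.89, with a mean of 0.95 ± 0.06 (adjusted p = 4.24e-13). In 12 of 91 nuclear members the 3 septic libraries lay above the 3 control libraries in all 4 populations, against 3.99% of all genes, and in 0 they lay below in all 4, against 2.17%. Beside Atp5b and Atp5a1 they included Atp5c1 and Atp5d of the same catalytic head, Atp5f1 of the stalk, Atp5g2 of the ring, Ndufs1 of complex I, Sdha of complex II, and Uqcrfs1 of complex III. Of complex IV, the mitochondrial mt-Co1 alone met this criterion.

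Averaged over the populations, 24 nuclear members rose and 21 fell, with 3 mitochondrial members in each direction, against 19.6% and 17.5% of all genes. Complex V gave 7 higher and 2 lower of 16 subunits (median 0.25) and complex III 4 higher and 0 lower of 8 (median 0.17), while complex I gave 6 higher and 14 lower of 36 (median -0.12). The rises held Ndufs1, the largest iron-sulphur subunit of complex I (0.68 ± 0.07, adjusted p = 4.87e-09), Uqcrfs1, the iron-sulphur protein of complex III (0.62 ± 0.05, adjusted p = 3.35e-11), Atp5d, the delta subunit of the ATP synthase head (0.79 ± 0.08, adjusted p = 4.45e-09), and Sdha (0.40 ± 0.06, adjusted p = 7.74e-06). Sdhb, the iron-sulphur subunit of complex II, went the other way and fell by 0.55 ± 0.07 (adjusted p = 1.4e-07). Uqcrc2, the other core protein of complex III, rose by 0.67 ± 0.07 (adjusted p = 6.92e-09), with 19.8% of its exon bases shared with Pdzd9. Ndufb10, an accessory subunit of complex I, fell by 0.62 ± 0.08 (adjusted p = 3.49e-07). It measured 54.91, 59.86 and 43.46 CPM in control proNeu2 and 26.1, 28.27 and 30.73 in septic proNeu2. By coding length, 11 of 25 members of 600 bases or more rose and 4 fell (median 0.28), and 13 of 66 shorter ones rose and 17 fell (median -0.03). The part of length in these counts was not tested. Without the septic libraries numbered 1, 21 nuclear members rose and 18 fell, and 1 mitochondrial member rose and 6 fell.

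Population by population, septic Ly6C- GMP had 18 nuclear members higher and 8 lower (10.3% and 7.42% of all genes), with 1 mitochondrial member each way. With library totals as the scaling, 12 nuclear members were higher and 13 lower. Septic proNeu1 had 8 nuclear members higher and 19 lower (8.3% and 7.3% of all genes) and 0 mitochondrial members higher and 2 lower, and 13 of the 19 were subunits of complex I. Without proNeu1 library 2 or septic proNeu1 library 3, 19 and 18 members passed in place of 29. Septic proNeu2 had 15 higher and 10 lower (9.45% and 7.57% of all genes), with 1 mitochondrial member higher and 2 lower. Septic preNeu had 16 higher and 0 lower (7.57% and 4.21% of all genes) and 0 of 13 mitochondrial members past the threshold. Among the 16 were assembly factors that had fallen on the way to preNeu in controls: Ndufaf4, at 9.773, 9.18 and 8.541 CPM in septic preNeu against 2.053, 3.29 and 7.044, rose by 1.27 ± 0.32 (adjusted p = 0.00794), and Ndufaf6 rose by 1.39 ± 0.41 (adjusted p = 0.0233). Both comparisons use the same control preNeu libraries. The sum of late neutrophil markers was lower in septic than in control preNeu, as given above. Not all of them were lower, since Lcn2 ran from 2751 to 3526 CPM in septic and from 1239 to 3543 in control preNeu. The sum of progenitor markers was also lower, at 30.1 to 31.8 CPM in septic and 202.7 to 270.8 in control preNeu. The part of these markers in the rise was not tested. Fitted on the 6 preNeu libraries alone, 4 members passed in place of 16.

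The 4 sepsis effects differed from one another for 9 of 91 nuclear and 0 of 13 mitochondrial members, against 6.34% of all genes. Cox7a2l fell by 0.65, 0.57 and 0.68 in Ly6C- GMP, proNeu1 and proNeu2 and had a change of 0.18 in preNeu (adjusted p of the difference = 0.00125). Its septic libraries ran from 115.6 to 151 CPM over all 4 populations, while controls were at 213.4, 230.3 and 194.9 in Ly6C- GMP and 128.2, 109.1 and 117.4 in preNeu. Sdhb fell by 0.78, 0.88 and 0.66 in the first 3 populations and had a change of 0.10 in preNeu (adjusted p = 0.00375). In Ly6C- GMP it measured 192.1, 232.1 and 189 CPM in controls and 128.3, 99.15 and 130.5 in sepsis, opposite to Sdha of the same complex. Uqcrc1 gave 0.07, -0.28, -0.48 and 0.28, of which the fall in proNeu2 passed (adjusted p of the difference = 0.00279). Ndufs8 gave -0.37, -0.44, -0.30 and 0.57 (adjusted p = 0.00539), Atp5g1 -0.04, -0.59, -0.14 and 0.77 (adjusted p = 0.00754) and Ndufa9 0.11, -0.30, -0.02 and 0.67 (adjusted p = 0.0126). In all 9 members the value in preNeu was the highest of the 4. These members were picked by the test of the difference, and all use the same control preNeu libraries. How often preNeu was highest among all genes with differing effects was not counted, so this is a description only. For Atp5b and Atp5a1 the difference between populations did not pass (adjusted p = 0.2 and 0.45).

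**Figure D5:**
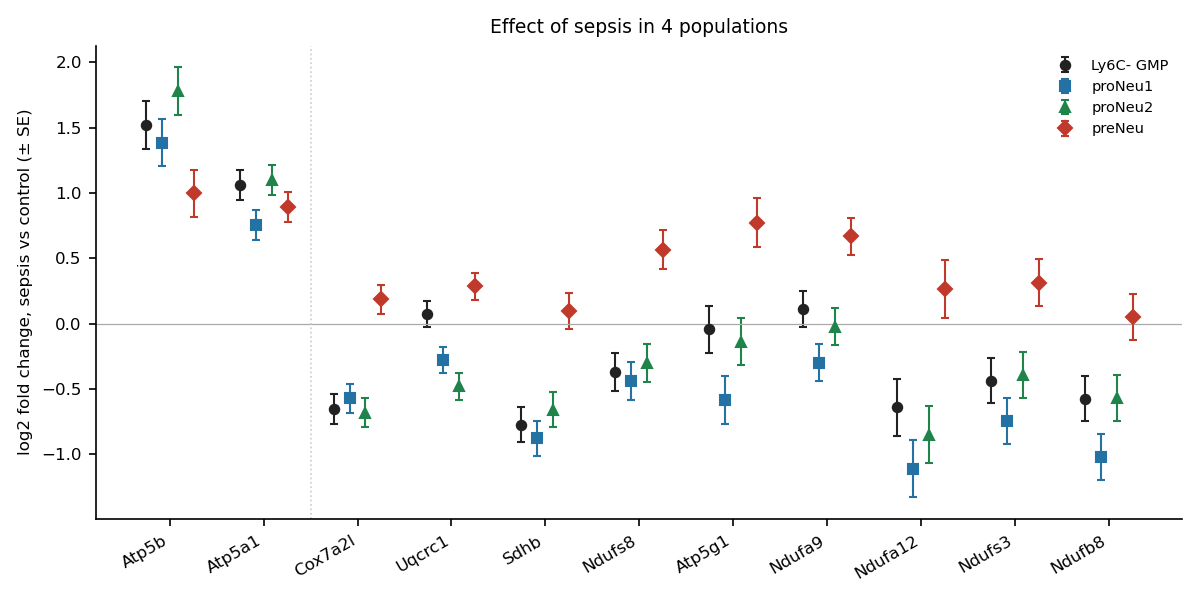
Log2 fold change ± SE of sepsis against control in 4 populations (n = 3 libraries per group) for Atp5b and Atp5a1, left of the dotted line, and for the 9 members whose effects differed between populations. Atp5b and Atp5a1 rise in all 4, and for the 9 others preNeu has the highest value.

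Other genes of mitochondrial energy metabolism were counted from lists, to be read against the shares of all genes: 14.7% fell and 13.1% rose from proNeu2 to preNeu, 25.5% fell and 20.1% rose in Ly6Chi monocytes against Ly6C- GMP, and 17.5% fell and 19.6% rose in the mean sepsis effect. Of 21 tested genes for mitochondrial transcription and genome upkeep, 13 fell and 1 rose from proNeu2 to preNeu (median -0.71). Fastkd2, which handles mitochondrial RNA, fell by 1.80 ± 0.21 (adjusted p = 1.49e-07), Polrmt, the mitochondrial RNA polymerase, by 0.98 ± 0.18 (adjusted p = 0.000135), and Tfam, which packages mitochondrial DNA and starts its transcription, by 0.73 ± 0.19 (adjusted p = 0.00428). In the mean sepsis effect 9 of the 21 rose and 3 fell (median 0.08), Polrmt among those that rose (0.49 ± 0.09, adjusted p = 7.37e-05). Of 46 further assembly and carrier genes outside the members, 26 fell and 0 rose from proNeu2 to preNeu (median -0.73), among them Cycs, cytochrome c, by 1.16 ± 0.14 (adjusted p = 3.14e-07), and Acad9, needed for building complex I, by 1.59 ± 0.15 (adjusted p = 5.84e-09). In Ly6Chi monocytes against Ly6C- GMP 26 of these 46 fell and 2 rose, and in the mean sepsis effect 14 rose and 11 fell. Of 19 genes of pyruvate dehydrogenase and the citric acid cycle, 10 fell and 2 rose from proNeu2 to preNeu, and 12 rose and 3 fell in the mean sepsis effect (median 0.53), with Cs, citrate synthase, rising by 1.08 ± 0.06 (adjusted p = 1.22e-14). Of 15 genes for uncoupling, exchange across the inner and outer membranes and antioxidant defence, 10 rose and 2 fell in the mean sepsis effect. Slc25a3, the phosphate carrier that supplies the ATP synthase, rose by 1.31 ± 0.08 (adjusted p = 1.47e-13), and Slc25a4, an ADP/ATP carrier, by 1.26 ± 0.18 (adjusted p = 2.05e-06). Of 11 regulators, 4 rose and 2 fell from proNeu2 to preNeu: Nrf1, whose motif was searched above, rose by 1.05 ± 0.15 (adjusted p = 5.8e-06) and Myc fell by 2.16 ± 0.31 (adjusted p = 3.09e-06).

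Outside the members, the genes whose log2 levels over the 11 group means were most like the mean profile of the mitochondrial members were Gm28439 (Pearson r = 0.94), Fpgt (0.932) and Bst2 (0.906). Gm28439 is the nuclear copy of mt-Nd4 on chromosome 1. Most like the nuclear members were Rps25 (0.965), Gm5835 (0.951) and Gm5529 (0.936). These values describe 11 groups that share libraries and scaling.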

How the data were processed

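Per the labels' protocols, RNA of sorted cells was extracted with PicoPure columns (median RIN 9.4), and 2 ng was made into SMARTSeq v2 and Nextera XT libraries sequenced on an Illumina HiSeq. Per the submitters' processing notes, the authors used STAR, featureCounts and GRCm38. Versions, strand setting and the treatment of reads with several positions are not given in the sources used here. The values used are the raw counts deposited by the authors, whole numbers in 54752 rows and 33 libraries, with 0 spike-in rows, and 54723 rows matched a symbol. Of counts from 1 to 10, 76.2% were even. Replicates of a group had correlations of log2 levels of 0.953 to 0.985, and 0 libraries were identical.

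All 33 libraries were fitted with edgeR 4.0.16 (R 4.3.3): TMM scaling, filterByExpr (18198 genes, 104 of them members), robust quasi-likelihood tests with 22 residual degrees of freedom, a common biological coefficient of variation of 0.472, and calls at a Benjamini-Hochberg adjusted p under 0.05. The p-values measure the spread between the samples described as biological replicates. All libraries were treated as independent, and the labels do not say whether different populations came from the same mice. If they did, the SE and p-values of the mean sepsis effect could be too small, and the 4 populations would not be separate evidence. The script was tested on simulated counts. Alternatives were DESeq2 1.42.0, other scalings and filters, fits of the libraries compared only, and leaving out each library or the 5 shallow ones. Leaving out the 4 septic libraries numbered 1, or the 4 nuclear members with the most counts, was chosen after seeing the data. Nuclear copies were found with blastn 2.17.0 in GENCODE M21 transcripts. Tables and figures used Python 3.11.15, pandas 2.3.3, SciPy 1.17.1 and matplotlib 3.10.9.

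Members and lists were chosen with earlier results of these data known. Genes are named by rule: all 13 mitochondrial members, a fixed panel of subunits and isoforms, per comparison the 3 called nuclear members that rose most and the 3 that fell most at 20 CPM or more without overlap of libraries, the 5 lowest p-values for the mean and the tests over several groups, and the 3 outside genes most like each genome's profile. Other members named, and the genes named from the lists, were chosen after their values were seen. Exon bases shared with other genes are given where over 9% for a gene whose change is quoted. Results on some items are not reported here.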

Additional observations from a re-analysis of the deposited data

Results flagged for a closer look

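For 9 nuclear members the effect of sepsis differed between Ly6C- GMP, proNeu1, proNeu2 and preNeu in edgeR's quasi-likelihood test of the difference itself, with Benjamini-Hochberg adjustment. The adjusted p was 0.00125 for Cox7a2l, 0.00279 for Uqcrc1, 0.00375 for Sdhb, 0.00539 for Ndufs8, 0.00754 for Atp5g1, 0.0126 for Ndufa9, 0.0238 for Ndufa12, 0.0372 for Ndufs3 and 0.0419 for Ndufb8. In the same order of populations, the log2 changes were -0.64, -1.11, -0.85 and 0.27 for Ndufa12, an accessory subunit of complex I, and -0.44, -0.75, -0.39 and 0.31 for Ndufs3, a core subunit of its peripheral arm. Ndufb8, a membrane-arm accessory subunit, gave -0.57, -1.02, -0.57 and 0.05. Of these 9 members, Sdhb did not pass without the 5 shallow libraries (adjusted p = 0.0638).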

How the results depend on the processing

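No paired analysis was possible because the labels give no replicate numbers, and the numbers used here follow accession order only. Counts of members that passed moved by over 1.5 times in these settings. From Ly6C- GMP to proNeu1 the count went from 1 to 0 with library totals as the scaling, with no filter, with only the libraries compared and without the 5 shallow libraries. From proNeu1 to proNeu2 it went from 2 to 4 in DESeq2, to 0 with no filter or only the libraries compared, and to 1 with scaling from genes off the mitochondrial genome. With only the libraries compared it went from 40 to 22 in preNeu against proNeu2, from 13 to 20 in TpMo against cMoP and from 16 to 4 in septic preNeu. With no filter it went from 27 to 15 in cMoP against Ly6C- GMP and from 28 to 18 in septic Ly6C- GMP. It was 27 for TpMo against cMoP with library totals. In septic proNeu1 it went from 29 to 19 without the septic libraries numbered 1 and to 15 without the shallow ones. DESeq2 gave 16 in place of 9 for differing sepsis effects. The causes were not tested.

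Leaving out each library in turn, 0 to 1 members passed for proNeu1 against Ly6C- GMP, 0 to 1 for proNeu2 against proNeu1, 30 to 42 for preNeu against proNeu2, 13 to 20 for cMoP against Ly6C- GMP, 3 to 8 for TpMo against cMoP and 13 to 21 for Ly6Chi monocytes against TpMo. The range was 38 to 45 for preNeu and 38 to 51 for Ly6Chi monocytes against Ly6C- GMP, and 67 to 73 for any difference among control groups. For sepsis it was 19 to 25 in Ly6C- GMP, 18 to 24 in proNeu1, 21 to 26 in proNeu2, 11 to 22 in preNeu, 47 to 56 for the mean and 6 to 12 for differing effects. The lowest value in septic proNeu1 came without its library 3. The fold between the highest and lowest group was 1.95 to 2.37 for the nuclear share and 2.0 to 2.61 for the mitochondrial share, and the range between group means of the log2 ratio of the genomes was 0.859 to 1.37. mt-Nd6 reversed in the mean sepsis effect, from 0.03 to -0.46 without the septic libraries numbered 1. Of the other values of named members, 3541 kept their side of the threshold without 1 library, 210 lost and 32 gained a call, and 3827 kept it in the other settings, where 137 lost and 100 gained a call. Among values that passed in neither fit, 189 changed sign without 1 library and 128 in the other settings. Without the septic libraries numbered 1, the mean sepsis effect went from 0.10 to -0.28 for mt-Nd4, from 0.65 to -0.55 for mt-Nd3 and from 0.20 to -0.04 for mt-Co2. Members with few counts, such as mt-Nd3, are limited by depth.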
